A study of Mus musculus with 18 samples.

Results

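The genes described here were 10 Sox transcription factors: Sox2, Sox3, Sox4, Sox5, Sox6, Sox8, Sox9, Sox10, Sox11 and Sox12. They were taken by gene symbol from a table of 58570 gene loci measured in mouse spinal cord, and each of the 10 was found. RNA came from whole cords of SMNΔ7 mice, a model of spinal muscular atrophy (SMA), at postnatal days 2, 6 and 10 (P2, P6 and P10). SMA animals were homozygous for the disrupted mouse Smn1 gene, and control animals were heterozygous. In this model as it is generally described, SMA pups lack mouse Smn1 in every tissue and survive on human SMN2 and SMNΔ7 transgenes, which the heterozygous controls usually carry too. The labels named 18 libraries, 3 in each of the 6 combinations of genotype and age, and the deposited tables combined the 3 libraries of a group into 1 value per gene. Whether the 3 came from separate litters, and how many cords entered a library, was not given in the sources used here, so p-values reflect only the spread recorded in the tables, which may be technical.

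Sox proteins bind the minor groove of DNA through a shared high mobility group (HMG) domain, bend the DNA, and mostly act together with partner factors. SoxB1 proteins such as Sox2 and Sox3 maintain neural progenitors, and Sox2 is also made by glial cells. SoxC proteins (Sox4, Sox11 and Sox12) follow in newly formed neurons, where they switch on neuronal genes such as tubulins, and they decline as neurons mature. SoxE proteins (Sox8, Sox9 and Sox10) specify glia: Sox9 acts in progenitors and astrocytes, whereas Sox10 and, with it, Sox8 drive the terminal differentiation of oligodendrocytes and the myelin genes. SoxD proteins (Sox5 and Sox6) lack a transactivation domain and modulate SoxE function, delaying oligodendrocyte differentiation in the cord and supporting Sox9 in cartilage.

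Expression was given in FPKM (fragments per kilobase of transcript length, adjusted for sequencing depth), a level per length that allows genes to be set side by side. Each FPKM came with a model interval, which is the only measure of spread in the tables. The 6 groups held 6881671 to 7386338 estimated fragments each. Errors below are standard errors (SE) of log2 ratios of FPKM derived from that interval, and a gene was called where the Benjamini-Hochberg adjusted p of a z test over all genes tested was under 0.05. Genes tested had an FPKM of 1 or more in at least 1 compared group and above 0 in each. Smn1, the gene disrupted in SMA animals, had a level of 2.70 FPKM in control cords and 0.0210 in SMA cords of age P2. The P6 level was 4.46 in control, and the gene was listed at 0 in SMA. At P10 it stood at 3.54 in control and 2.82 in the group labelled SMA, 79.8% of the control level. The P10 value goes against that label, so every SMA value at P10 below is that of the group labelled SMA. Neuronal and glial markers of the cord were present in every group. The synaptic gene Snap25 ranged from 109 to 165 and the motor neuron gene Prph from 15.4 to 27.0 FPKM. The astrocyte gene Aldoc ranged from 153 to 217 FPKM.

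In control cords the order of the Sox genes turned over between P2 and P10. Sox4 ranked 1st of the 10 at P2 with an FPKM of 26.4, and 5th at P10 with 12.4. Sox8 ranked 6th at P2 with 8.25 and 1st at P10 with 34.1. Sox2, at 19.5 and 22.1, was 2nd at both ages, and Sox3 was last in all 6 groups. Neighbours in the order seldom stood apart: in each group only 1 of the neighbouring pairs, the last one with Sox3, had intervals that did not overlap. The order among the other genes is therefore a description of the point values.

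**Figure D1:**
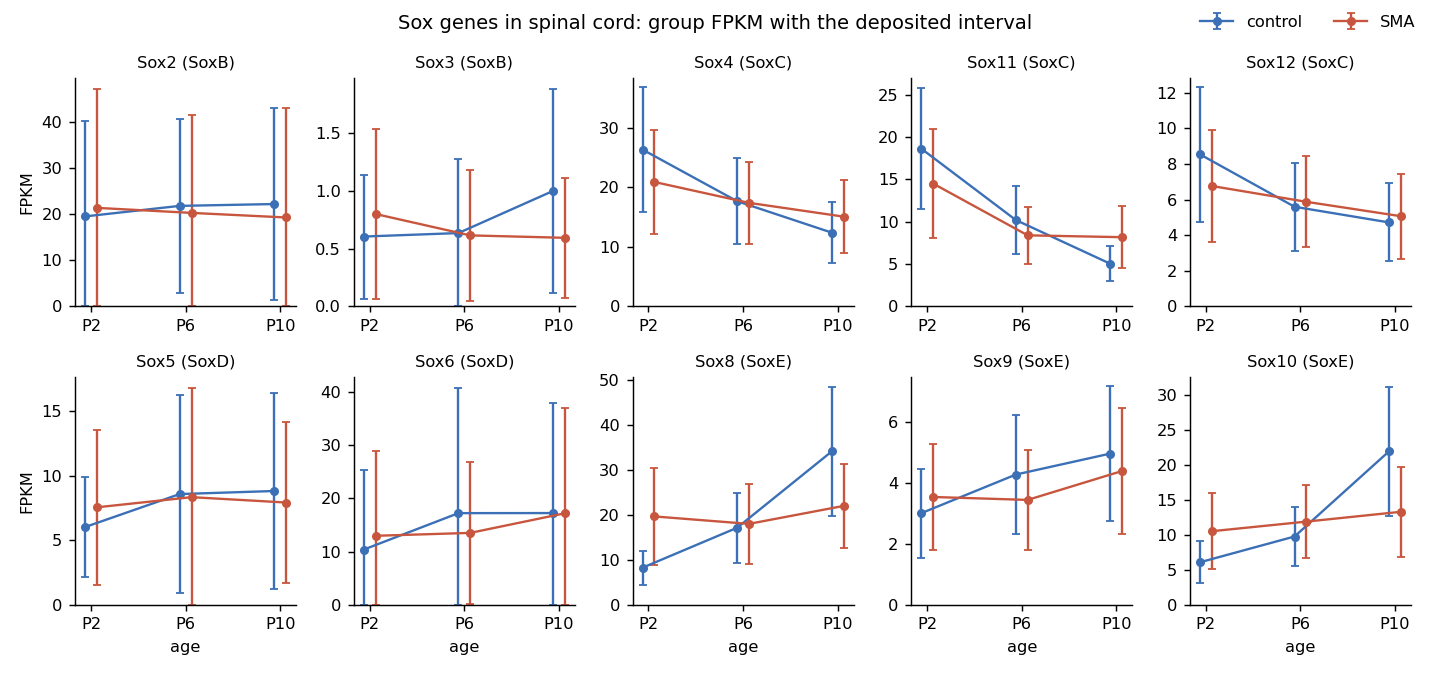
FPKM of the 10 Sox genes (vertical axes, linear and separate for each gene) at P2, P6 and P10 in control (blue) and SMA (red) cords. Points are the authors' group values and bars the deposited interval; Sox11 fell and Sox8 and Sox10 rose in control cords, while the bars of Sox2, Sox5 and Sox6 span most of their panels.

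Summed by group, the 3 SoxC genes made up 49.9% of the FPKM of the 10 genes in control cords at P2 and 16.7% at P10. The 3 SoxE genes made up 16.2% and 46.1%. The ratio of the SoxC sum to the SoxE sum was 3.09, 1.07 and 0.362 in control at the 3 ages in turn, and 1.25, 0.949 and 0.713 in SMA. The total over all 10 genes moved less, from 107 to 132 FPKM in control and between 108 and 119 in SMA. The SoxB sum stayed between 19.8 and 23.1 FPKM over the 6 groups. These sums carry no test.

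**Figure D2:**
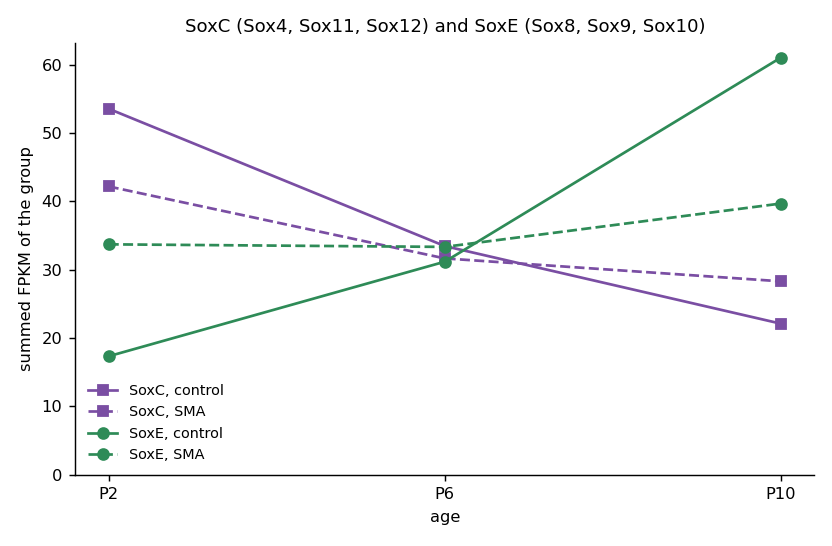
Summed FPKM (vertical axis, from 0) of the SoxC genes (purple squares) and SoxE genes (green circles) by age in control (solid) and SMA (dashed) cords. In control the SoxC sum went from 53.6 at P2 to 22.1 at P10 and the SoxE sum from 17.3 to 61.0; the SMA lines ran from 42.2 to 28.3 and from 33.7 to 39.7.

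The SoxC genes are compact: in the GENCODE M21 annotation of the mouse build GRCm38, the longest coding transcript of Sox4 (chromosome 13, 28948919 to 28953713), Sox11 (chromosome 12, 27334264 to 27342574) and Sox12 (chromosome 2, 152393611 to 152398063) consists of 1 exon on the minus strand. Sox8 (chromosome 17, 25565892 to 25570686, minus strand) has 3 exons. The 250 bases before the RefSeq start of these 4 genes (assembly GRCm38.p6) are shown because the 3 SoxC genes had lower and Sox8 had higher levels at P10 than at P2 in control cords. All are written 5′ to 3′ on the minus strand, as the gene is read. They lie at chr13:28953700-28953949, chr12:27342719-27342968, chr2:152398047-152398296 and chr17:25570687-25570936, in this order. Capitals mark the CCAAT box (CCAAT on either strand, so ATTGG too) and the octamer ATGCAAAT bound by POU factors, which are Sox partners.
Sox4: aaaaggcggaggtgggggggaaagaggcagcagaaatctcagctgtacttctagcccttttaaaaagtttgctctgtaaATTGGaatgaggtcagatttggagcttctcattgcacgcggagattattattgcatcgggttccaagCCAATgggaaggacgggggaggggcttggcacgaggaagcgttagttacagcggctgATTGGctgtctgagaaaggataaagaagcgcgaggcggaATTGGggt
Sox11: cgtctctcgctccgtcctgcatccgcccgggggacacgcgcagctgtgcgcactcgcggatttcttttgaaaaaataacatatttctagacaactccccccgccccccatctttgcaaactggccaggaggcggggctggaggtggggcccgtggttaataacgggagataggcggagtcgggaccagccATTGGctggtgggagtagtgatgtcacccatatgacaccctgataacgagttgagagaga
Sox12: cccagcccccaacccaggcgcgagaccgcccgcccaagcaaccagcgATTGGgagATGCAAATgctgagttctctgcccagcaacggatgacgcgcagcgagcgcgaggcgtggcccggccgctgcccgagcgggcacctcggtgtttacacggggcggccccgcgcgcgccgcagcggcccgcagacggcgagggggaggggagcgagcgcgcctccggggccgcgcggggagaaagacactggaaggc
Sox8: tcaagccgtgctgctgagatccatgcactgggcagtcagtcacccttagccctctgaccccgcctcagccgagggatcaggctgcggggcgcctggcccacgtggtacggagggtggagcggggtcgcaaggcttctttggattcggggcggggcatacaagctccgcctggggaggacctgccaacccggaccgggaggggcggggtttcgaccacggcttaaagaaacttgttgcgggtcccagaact
The Sox4 window held 4 CCAAT boxes, and the windows of Sox11 and Sox12 held 1 each, starting 60 and 203 bases before the start site. The Sox8 window held 0. CCAAT stood in 33.8% of 32851 RefSeq promoter windows of the same length. Sox12 also held the octamer, 195 bases before its start, overlapping an E box (CANNTG), and the octamer stood in 1.60% of all windows. None of the 4 windows held the Sox motifs ACAAAG or ACAATG on either strand, which stood in 16.5% and 10.7% of all windows, or the TATA box TATAAA, in 12.4%. The GC box GGGCGG stood in 32.7% of all windows, with 2 copies each in Sox11 and Sox8, 3 in Sox12 and 0 in Sox4. G and C made up 50.8% of the Sox4 window, 58% of that of Sox11, 74.4% of that of Sox12 and 65.6% of that of Sox8, against a median of 52.4% over all windows. Of the 10 genes 7 had an entry in the promoter table, and Sox3, Sox9 and Sox10 had none.

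Sox11, a driver of neuronal differentiation and axon growth in newly formed neurons, stood at FPKM 18.6, 10.2 and 5.01 in control at P2, P6 and P10. In SMA it stood at 14.5, 8.37 and 8.15. The intervals of control P2 and control P10 did not overlap, and all other pairs of ages within a genotype did. Sox11 fell 3.72-fold between P2 and P10 in control (log2 ratio -1.89 ± 0.42 SE, z test, adjusted p = 0.0018). Sox4, the most abundant SoxC gene, stood at 26.4, 17.7 and 12.4 in control and 20.9, 17.4 and 15.1 in SMA. Its P10 to P2 log2 ratio in control was -1.09 ± 0.43 (z test, adjusted p = 0.594), with overlapping intervals. Sox12, the weakest activator of the 3, stood at 8.54, 5.59 and 4.71 in control and 6.76, 5.87 and 5.06 in SMA, with a log2 ratio of -0.86 ± 0.47 in control. All 3 SoxC genes were highest in control at P2 and lowest in control at P10, with the SMA values of all ages in between.

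Sox8, a SoxE gene that acts with Sox10 in oligodendrocytes, stood at FPKM 8.25, 17.1 and 34.1 in control at P2, P6 and P10. In SMA it stood at 19.6, 18.0 and 22.0. It rose 4.13-fold between P2 and P10 in control (log2 ratio 2.05 ± 0.46, z test, adjusted p = 0.00274). Sox10, the main regulator of oligodendrocyte differentiation and also of Schwann cells, lies on chromosome 15 (79154908 to 79165240, minus strand, 5 exons). It stood at 6.09, 9.78 and 22.0 in control and 10.5, 11.9 and 13.3 in SMA. It rose 3.61-fold in control (log2 ratio 1.85 ± 0.48, z test, adjusted p = 0.0199). For both genes the intervals of control P2 and control P10 did not overlap, while the SMA values spanned 18.0 to 22.0 for Sox8 and 10.5 to 13.3 for Sox10. Sox9 (chromosome 11, 112782224 to 112787760, plus strand, 3 exons), which sets up glial fate in progenitors and stays on in astrocytes, was the lowest SoxE gene. It stood at 3.00, 4.26 and 4.95 in control and 3.53, 3.43 and 4.38 in SMA, with a log2 ratio of 0.72 ± 0.49 in control. In whole cords a change in the number of cells of a type and a change in RNA per cell cannot be told apart.

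Sox2 stood at 19.5, 21.7 and 22.1 FPKM in control and 21.3, 20.2 and 19.2 in SMA, the narrowest range of the abundant Sox genes. Its log2 ratio from P2 to P10 in control was 0.19 ± 1.04. Sox2 (chromosome 3, 34650405 to 34652461, plus strand, 1 exon) lies within the locus of the noncoding transcript Sox2ot, and the authors' table placed 36 other rows in the same stretch. The distance from its FPKM to the upper bound had a median of 105% of the FPKM over the 6 groups, against 40.8% for Sox4 and Sox11, and 55.5% to 56.9% for protein-coding genes at FPKM 5 to 30. A 2-fold change in Sox2 would therefore not be resolved. Sox3, the other SoxB gene (chromosome X, 60891366 to 60893430, minus strand, 1 exon), stood between 0.594 and 1.00 FPKM, on 7.94 to 15.9 estimated fragments. It reached FPKM 1 only in control at P10 and could be tested only where that group took part; its log2 ratio from P2 to P10 in control was 0.73 ± 0.92.

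The SoxD genes are long: Sox5 (chromosome 6, 143828425 to 144781977) spans 954 kb in 15 exons and Sox6 (chromosome 7, 115470872 to 116038796) spans 568 kb in 17 exons, both on the minus strand. Sox5 stood at 6.02, 8.58 and 8.82 FPKM in control and 7.55, 8.34 and 7.92 in SMA. Sox6 stood at 10.4, 17.2 and 17.2 in control and 13.0, 13.5 and 17.2 in SMA. Both had their lowest value in control at P2, but their intervals overlapped in every pair of groups. The log2 ratios from P2 to P10 in control were 0.55 ± 0.79 for Sox5 and 0.73 ± 1.38 for Sox6, and from the deposited fragment counts that of Sox5 was 0.12. The authors' table placed 7 other rows at the locus of Sox5 and 5 at that of Sox6, with antisense transcripts among them. The strand setting of the counting was not given in the sources used here, so reads of Sox5 or Sox6 and of transcripts that overlap them may not be separated. The antisense rows named for these genes stayed at or below 1.01 FPKM, but another row at the Sox6 locus stood at 26.8 to 40.1 FPKM, above Sox6 in all 6 groups.

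Across the 10 genes, Sox8, Sox10 and Sox11 were thus called between P2 and P10 in control, 3 of 10, where 0.631% of 19956 genes tested were called. Of these genes 0.546% were called as higher at P10 and 0.0852% as lower, while the Sox genes had 2 calls higher and 1 lower. The median log2 ratio was -1.09 over the SoxC genes and 1.85 over the SoxE genes, against 0.02 over all genes tested. A ratio of 2-fold or more in either direction was reached by 4 of the 10 Sox genes (Sox4, Sox8, Sox10 and Sox11), and by 12.6% of all genes tested. If the interval were read as that of 1 library, with the SE divided by the square root of 3, Sox4 (adjusted p = 0.000513) and Sox12 (adjusted p = 0.0388) would be called too.

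**Figure D3:**
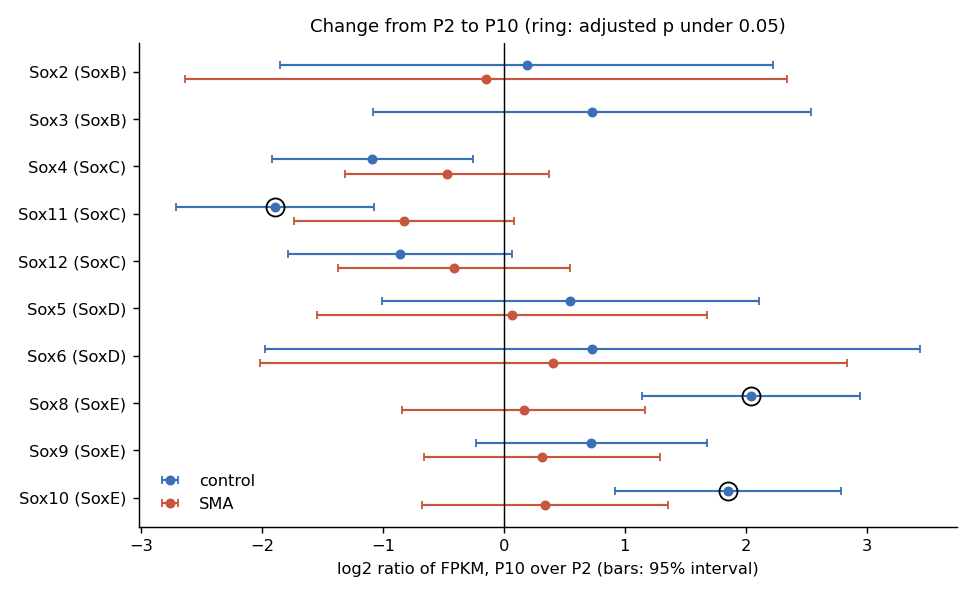
Log2 ratio of FPKM at P10 over P2 (horizontal axis) for the 10 Sox genes in control (blue) and SMA (red) cords, with 95% intervals from the deposited bounds; rings mark adjusted p under 0.05. In control Sox11 lies at -1.89, Sox8 at 2.05 and Sox10 at 1.85, and in SMA no gene is ringed; Sox3 was not tested in SMA.

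The control change was spread over both steps. From P2 to P6 the log2 ratios of the SoxC genes ran from -0.87 to -0.58 and those of the SoxE genes from 0.51 to 1.05, and 0 of 9 Sox genes tested were called where 0.112% of all genes were. From P6 to P10 they ran from -1.02 to -0.25 and from 0.22 to 1.17, and 0 of 10 were called where 0.0751% of all genes were. The smallest unadjusted p was 0.027 in the first step and 0.0087 in the second.

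In SMA cords the same genes had ratios closer to 0. Between P2 and P10 the log2 ratio of FPKM was -0.83 ± 0.46 for Sox11, -0.47 ± 0.43 for Sox4 and -0.42 ± 0.49 for Sox12. It was 0.16 ± 0.51 for Sox8, 0.31 ± 0.50 for Sox9 and 0.34 ± 0.52 for Sox10. None of the 9 Sox genes tested was called, where 0.0602% of all genes were, and none reached 2-fold, where 6.65% of all genes did. From P2 to P6 and from P6 to P10 in SMA, 0 of 9 Sox genes were called, where 0.0312% and 0.0398% of all genes were. The end point at P10 is the group whose Smn1 level goes against its label. The start point is SMA at P2. From there to P6, all 10 myelin and oligodendrocyte genes measured (described below) were lower in SMA, with a median log2 ratio of -0.53 and 0 called. In control all 10 were higher over that step (median 2.50), and 3 were called where 0.112% of all genes tested were. Why the genotypes differ there was not tested.

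Whether the change from P2 to P10 differed between the genotypes was tested directly, as the log2 change in SMA minus that in control. The difference was -1.88 ± 0.69 for Sox8 (unadjusted p = 0.0062), -1.51 ± 0.71 for Sox10 (unadjusted p = 0.032) and -0.41 ± 0.70 for Sox9. It was 1.06 ± 0.62 for Sox11 (unadjusted p = 0.088), 0.62 ± 0.60 for Sox4 and 0.44 ± 0.68 for Sox12. None of the 10 was called (z test, adjusted p = 1.00 for each), where 0.0574% of 20916 genes were, so a difference between the genotypes is not shown for any Sox gene. With the SE divided by the square root of 3, Sox8 (adjusted p = 0.000669) and Sox10 (adjusted p = 0.0307) would be called. From P2 to P6 the difference was -1.18 ± 0.72 for Sox8, and lay between -0.55 and 0.41 for the other SoxC and SoxE genes. None of 9 was called, where 0.0344% of all genes were.

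At P2, all 3 SoxE genes had higher and all 3 SoxC genes lower FPKM in SMA than in control, and none was called. The log2 ratio of SMA over control was 1.25 ± 0.53 for Sox8 (unadjusted p = 0.018), 0.79 ± 0.53 for Sox10 and 0.23 ± 0.51 for Sox9. It was -0.33 ± 0.43 for Sox4, -0.36 ± 0.43 for Sox11 and -0.34 ± 0.48 for Sox12. Sox2 (0.13), Sox5 (0.33) and Sox6 (0.32) had SEs of 0.75 to 1.40. Of the 9 Sox genes tested 0 were called, where 0.126% of 19114 genes were. With the SE divided by the square root of 3, Sox8 would be called (adjusted p = 0.00891).

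At P6 the log2 ratios of SMA over control ran from -0.35 for Sox6, whose SE was 1.24, to 0.28 for Sox10. They were -0.02 for Sox4, -0.28 for Sox11 and -0.31 for Sox9. Those of Sox12 and Sox8 were both 0.07, and turned to -0.036 and -0.035 once the ratios were centred on protein-coding genes, a shift of 0.106. None of 9 was called, where 0.0458% of all genes were.

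At P10 the signs were opposite to those at P2: all 3 SoxC genes had higher and all 3 SoxE genes lower FPKM in the group labelled SMA than in control. The log2 ratio was 0.70 ± 0.45 for Sox11 (unadjusted p = 0.119), 0.28 ± 0.43 for Sox4 and 0.10 ± 0.49 for Sox12. It was -0.63 ± 0.44 for Sox8, -0.72 ± 0.47 for Sox10 and -0.18 ± 0.48 for Sox9, and -0.75 ± 0.92 for Sox3. The 95% interval of the log2 ratio ran from -1.50 to 0.23 for Sox8 and from -0.18 to 1.59 for Sox11, so each interval includes ratios from no difference to more than 2-fold. None of 10 was called, where 0.0397% of 20157 genes were.

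**Figure D4:**
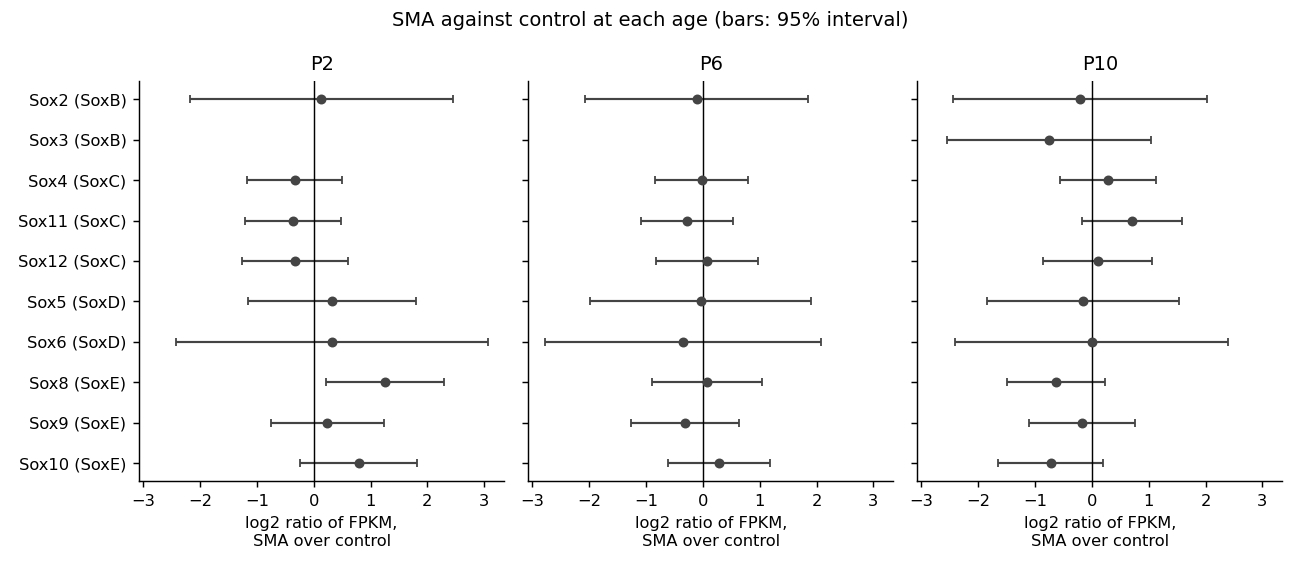
Log2 ratio of FPKM in SMA over control (horizontal axes) for the 10 Sox genes at P2, P6 and P10, with 95% intervals from the deposited bounds. At P2 Sox8 lies at 1.25 with an interval that does not reach 0, but its adjusted p is 1.00; the intervals of all other Sox genes tested cross 0 at each age.

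A model that does not use the intervals was fitted to the same values. The SoxC and SoxE genes had the same signs in both genotypes already, so this model could not give other signs for them. In limma, fitted to the 6 values per gene after a log2(FPKM + 1) transform with terms for age and genotype, the P10 to P2 difference over both genotypes was -1.23 ± 0.25 for Sox11, -0.74 ± 0.16 for Sox4 and -0.55 ± 0.14 for Sox12 (adjusted p = 0.282 for each). It was 1.04 ± 0.40 for Sox8 (adjusted p = 0.317), 1.00 ± 0.32 for Sox10 (adjusted p = 0.292), 0.53 ± 0.17 for Sox6 (adjusted p = 0.292) and 0.41 ± 0.15 for Sox9 (adjusted p = 0.308). None of the 10 was called, where 0.0137% of 21960 genes were. The same fit gave differences of SMA from control across the ages of -0.07 to 0.20, with 0 Sox genes called where 0.00455% of all genes were. That term averages the ages, and the SoxC and SoxE ratios had opposite signs at P2 and P10. It therefore could not show a genotype difference that changes sign with age. The fit treated the 2 genotypes as replicates for age and the 3 ages as replicates for genotype. With 2 residual degrees of freedom, limma called 3 genes for age at an adjusted p under 0.05 and 1 for genotype, against 3379 and 451 at an unadjusted p under 0.05.

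The measured genes on a list of those that SoxE proteins switch on in oligodendrocytes also rose with age in control. Of 11 listed myelin and oligodendrocyte genes 10 had a row of their own. All 10 had higher FPKM at P10 than at P2 in control. Of these, 8 were called, where 0.546% of all genes tested were called as higher. The median log2 ratio of the 10 was 4.58. Myrf, the myelin regulatory factor that Sox10 induces, went from 2.59 to 22.1 FPKM (log2 ratio 3.10 ± 0.50, z test, adjusted p = 5.84e-07). Mbp (myelin basic protein) went from 150 to 4281 and Mag (myelin-associated glycoprotein) from 11.1 to 315. Cnp, the connexin Gjb1 and the neuregulin receptor Erbb3 were called too, at log2 ratios of 3.31, 4.33 and 2.16. In SMA the summed FPKM of the 10 was 3384 at P2, 1999 at P6 and 4108 at P10, against 276, 1778 and 7428 in control. Their median log2 ratio from P2 to P10 in SMA was 0.25, with 0 called where 0.0602% of all genes tested were. All 10 were higher in SMA than in control at P2 (median log2 ratio 3.33), with Mag called (3.71 ± 0.92, z test, adjusted p = 0.0483) where 0.126% of all genes tested were. At P10 all 10 were lower in the group labelled SMA (median -0.79), with 0 called where 0.0397% of all genes tested were.

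Of 8 oligodendrocyte precursor and early oligodendrocyte markers 6 had a row of their own. Their median log2 ratio from P2 to P10 in control was 1.41. Of the 6, 2 were called as higher, where 0.546% of all genes tested were. These were Gpr17 (2.37 ± 0.44), a receptor of committed precursors, and Enpp6 (3.20 ± 0.58), a marker of newly forming oligodendrocytes. The summed FPKM of the 6 ran from 95.3 to 211 in control and from 131 to 171 in SMA. Schwann cells of the nerve roots also carry Sox10. Of 5 Schwann cell markers 1 was called as higher in control, Pmp22 (2.01 ± 0.48, z test, adjusted p = 0.00559), against the same 0.546% of all genes tested. The median log2 ratio of the 5 was 1.60. The summed Schwann cell markers stood at 57.4, 148 and 256 FPKM in control and 71.9, 197 and 126 in SMA at P2, P6 and P10. At P10 all 4 markers tested were lower in the group labelled SMA than in control (median log2 ratio -1.01). None was called, where 0.0397% of all genes tested were. Sox10 and Sox8 were lower in that group at P10 too. The part of Schwann cells in the Sox10 and Sox8 values was not tested.

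Immature neuron genes had ratios of the same sign as the SoxC genes. Of 9 listed genes 8 had a row of their own. All 8 had lower FPKM at P10 than at P2 in control (median log2 ratio -1.23). None was called, where 0.0852% of all genes tested were called as lower. The summed FPKM of the 8 was 1258, 874 and 599 in control and 1009, 967 and 844 in SMA. The tubulin Tubb3, a direct target of SoxC proteins, went from 263 to 132 FPKM in control and from 209 to 173 in SMA, and Marcksl1 from 222 to 147 and from 207 to 160. All 8 were lower in SMA than in control at P2 (median -0.35) and higher in the group labelled SMA at P10 (median 0.58). None was called at either age, where 0.126% and 0.0397% of all genes tested were. The share of the SoxC values that goes with the number of immature neurons was not tested.

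**Figure D5:**
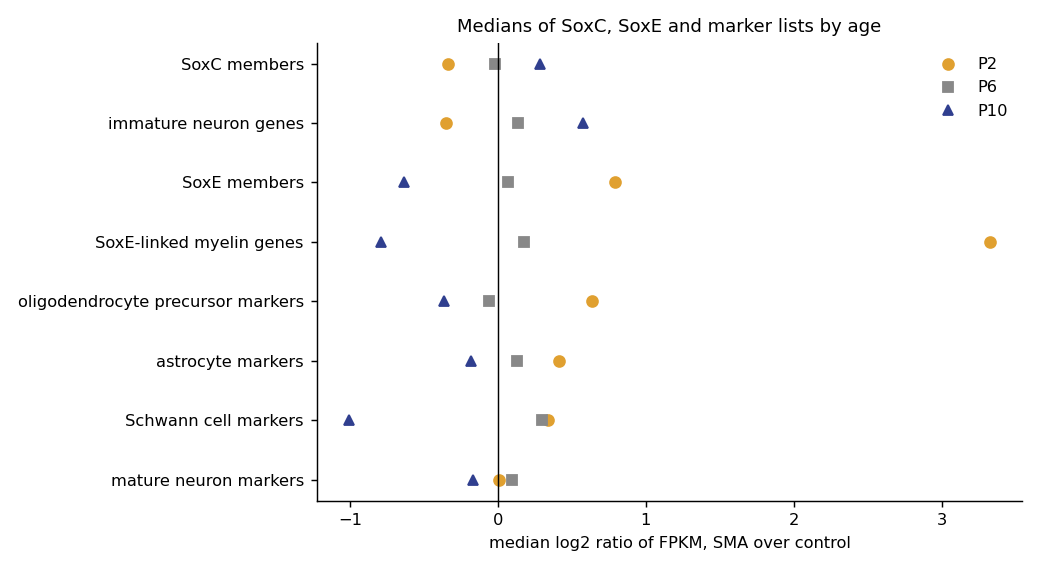
Median log2 ratio of FPKM in SMA over control (horizontal axis) of the SoxC genes, the SoxE genes and 6 marker lists at P2 (orange circles), P6 (grey squares) and P10 (blue triangles). The SoxE and myelin medians lie above 0 at P2 (0.79 and 3.33) and below 0 at P10 (-0.63 and -0.79). The SoxC and immature neuron medians lie below 0 at P2 (-0.34 and -0.35) and above 0 at P10 (0.28 and 0.58). Among lists not shown, the P2 and P10 medians were 0.28 and -0.49 for endothelial markers, 0.91 and -0.48 for cartilage markers, and 0.13 and -0.20 for further Sox genes. Those of the POU, progenitor, motor neuron and ependymal lists were below 0 at both ages. These medians carry no test.

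The remaining lists had 0 members called in the comparison of P10 with P2 in control and in SMA against control at each age. Of all genes tested, 0.631% were called in the first, and 0.126%, 0.0458% and 0.0397% at P2, P6 and P10 in the others. Astrocyte markers, 9 of 10 measured and the setting in which Sox9 is best known, had a median log2 ratio of 0.54 from P2 to P10 in control, with 6 of the 9 higher and 3 lower. The radial glial lipid carrier Fabp7 stood at 383 and 191 FPKM and Aldoc at 153 and 211, while the intermediate filament gene Gfap, named after its values were seen, stood at 65.6 and 318. Neural progenitor and cell cycle markers, where Sox2 is best known, had a median of 0.20 over 8 of 9 genes, with 6 higher and 2 lower. Vim stood at 63.1 and 39.9 FPKM and Notch1 at 8.91 and 11.9. POU factors that partner Sox proteins had a median of -0.12 over 5 genes, with Pou2f1 at 7.57 and 6.94 and Pou3f3 at 7.83 and 6.93. Mature neuron markers had a median of 0.40 (4 of 6 higher), motor neuron markers 0.21 (3 of 6), endothelial markers 0.65 (6 of 6) and ependymal markers -0.26 (0 of 2 tested). Of 8 markers of cartilage, in which Sox5, Sox6 and Sox9 act together, 4 reached FPKM 1 in some group. Col11a2 was the most abundant at 5.59 to 12.7 FPKM, and the defining gene Col2a1 stood between 0.828 and 2.41.

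For Sox2, Sox9, Sox10 and Sox11, the genes most alike in pattern were sought among 8053 protein-coding genes, by the root mean square distance of log2(FPKM + 1) values centred over the 6 groups. Nearest to Sox10 were Matn4 (0.0723), Myo1d (0.0834) and Eml1 (0.0892). Matn4, an extracellular matrix protein, stood at 3.37, 6.18 and 12.4 FPKM in control and 6.11, 6.63 and 7.18 in SMA. The nearest Sox gene to Sox10 was Sox8, at 0.146. Nearest to Sox11 were Mex3a (0.0745), B3gnt5 (0.0748) and St8sia2 (0.0972), the last a sialyltransferase of the neural cell adhesion molecule in immature neurons, and the nearest Sox gene was Sox4 at 0.241. St8sia2 stood at 7.78, 4.22 and 1.35 FPKM in control and 5.80, 3.53 and 3.24 in SMA. Nearest to Sox9 were Rgl1 (0.0240), Sec62 (0.0393) and Ago2 (0.0468), and nearest to Sox2 were Pofut2 (0.0289), Cnot4 (0.0298) and Pgpep1 (0.0346). With 6 points and small ranges for Sox2 and Sox9, such closeness is a description of these values.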

How the data were processed

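RNA of 18 libraries, 3 per group, was sequenced with a stranded total RNA kit after removal of ribosomal RNA, per the labels' protocols. The submitters' processing notes name FastQC, Bowtie2 2.2.4, TopHat2 2.1.1, Picard, Cufflinks 2.2.1, Cuffdiff and the build GRCm38; annotation release, strand setting and normalization are not given in the sources used here. The deposited tables hold 1 FPKM per gene and group with an interval, and, as estimated counts deposited by the authors, fragments with a model variance. Their totals were near equal between groups and the values are not whole, so they were not read as sequencing depth. Values per library were not analysed here, so no count model across libraries could be fitted.

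The SE of a log2 FPKM came from the distance to the upper bound divided by 1.96, and 11 comparisons used a two-sided z test with Benjamini-Hochberg adjustment over all genes tested. The robust SD of z was 0.237 to 0.470, narrower than a standard normal, so few genes were called. Another 2 contrasts used limma 3.58.1 in R 4.3.3, with a pseudocount of 1 and a trend. Positions came from GENCODE M21 and promoters from RefSeq. Both tests were tested on simulated data. Other steps ran in Python 3.11.15 (scipy 1.17.1, pandas 2.3.3, numpy 2.4.6; figures with matplotlib 3.10.9).

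The 10 Sox genes and the 13 lists were chosen with earlier results of these data known. Of a list, members called in a comparison were named, or where there were none 1 or both of the 2 most abundant; predicted genes were not named. Of neighbours the 3 nearest were named. Some list members that this rule names are not reported here, though the counts include them.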

Additional observations from a re-analysis of the deposited data

How the results depend on the processing

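No paired analysis was possible because the tables hold 1 combined value per group and carry no replicate numbers; fits with a replicate block and without each replicate were not run for the same reason. Of 256 recomputed values for the Sox genes named with a ratio, 249 kept their direction and their side of the threshold, 5 passed it when the SE was divided by the square root of 3, and 2 changed sign. The 2 were Sox12 (-0.036) and Sox8 (-0.035) in SMA against control at P6, centred on protein-coding genes. The 44 values at an FPKM minimum of 5, the 53 with no filter and those with the divided SE keep the main ratio by construction. So do the 7 limma values for age without P6. For all of these, only the side of the threshold could change. The interval limits what can be called: to its upper bound it had a median of 105% of the level for Sox2, 82.9% for Sox5 and 122% for Sox6.

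With the SE divided by the square root of 3, as if the interval were that of 1 library, all genes called numbered 123, 26 and 22 in SMA against control at P2, P6 and P10. They numbered 98, 207 and 920 in control for P6 against P2, P10 against P6 and P10 against P2, and 31, 46 and 44 in SMA. They numbered 53 and 163 for the difference between genotypes in the change to P6 and to P10. The Sox genes called became 1 in SMA against control at P2, 2, 3 and 5 in the control comparisons in the same order, and 2 in the difference to P10. Calling by intervals that do not overlap gave 44, 23 and 16 genes in SMA against control, 54, 55 and 272 in control and 23, 27 and 22 in SMA. From the deposited counts and their variance, 0 genes were called in SMA against control at P6, 0 at P10 and 0 for P6 against P2 in SMA, 12 and 216 in control for P6 against P2 and P10 against P2, 2 in each of the other SMA comparisons, and 3 and 23 in the differences. An FPKM minimum of 5 gave 20 in the difference to P10.

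In limma the genes called for age were 5 with a pseudocount of 0.1, 1 at FPKM 5 or more and 5 without P6, against 3. Those for genotype were 0 at FPKM 5 or more, 0 with no filter and 0 after centring, and 12, 15 and 6 without P2, P6 and P10, against 1. The cause of these shifts was not tested.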

Other observations

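The locus that holds Sox2ot, the long noncoding transcript in whose intron Sox2 lies, carried several joined symbols in the authors' table and belonged to none of the comparisons. Its FPKM was 9.23, 18.1 and 38.7 in control at P2, P6 and P10 and 20.7, 19.4 and 28.7 in SMA, while Sox2 itself stayed between 19.2 and 22.1. This locus was chosen after its values were seen, and the row is shared with other transcripts.

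Of 10 further Sox genes, 6 reached FPKM 1 in some group and none exceeded 2.50. The SoxB genes Sox1 and Sox21 were also named after their values were seen. They stood at 1.85, 1.60 and 1.15 FPKM and at 2.21, 1.83 and 1.68 FPKM in control at P2, P6 and P10. In SMA they stood at 1.77, 1.52 and 1.04 and at 2.13, 1.97 and 1.39. Sox13, the third SoxD gene, stood at 1.66, 1.95 and 2.45 in control and 2.50, 1.84 and 2.35 in SMA. Sox18, an endothelial factor, stood at 1.40, 2.43 and 1.99 in control and 1.75, 1.44 and 2.28 in SMA. Sry was listed at 0 in all 6 groups. None of these genes was called in any comparison of P10 with P2 or of SMA with control, where at most 0.631% of all genes tested were.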
